A study of Oryctolagus cuniculus with 24 samples.

Results

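LPS-stimulated rabbit PBMCs harvested at 24 hours (T24) were compared with LPS-stimulated PBMCs harvested at 4 hours (T4). The arrays were chosen by their labels, LPS T4 and LPS T24, and count 8 of the 24 arrays of the series. PBMCs, the mononuclear cells of the blood, came from 4 New Zealand White rabbits, all adult females, which are called rabbits 1, 2, 4 and 5 here, and each gave 1 array at each time. Blood was separated on a density gradient, the cells were cultured in RPMI medium with fetal bovine serum, and LPS was added at 1 µg/mL. Mock-stimulated PBMCs of the same 4 rabbits, which received a buffer without LPS, were harvested at the same times and give 4 arrays at T4 and 4 at T24. All cultures shared the medium and serum, none was measured before culture, and adherent and floating cells were not described separately. The comparison asks how transcript levels moved between an early and a late time in LPS-exposed cells. Mock-stimulated cells show how much of that movement also occurred in culture without LPS. No mock value was subtracted from the LPS values.

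Lipopolysaccharide (LPS), or endotoxin, comes from the cell envelope of Gram-negative bacteria. Monocytes bind it through CD14, TLR4 and LY96, and the adaptor MYD88 then leads to NF-kappaB activation and to transcription of cytokines such as TNF and IL1B. Early transcripts of this response are usually short-lived, and feedback inhibitors and IL10 restrain it later. Blood monocytes kept in culture also differentiate towards macrophages, which carry more lysosomal enzymes and scavenger receptors, and platelets are a usual contaminant of PBMC preparations.

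The arrays carry 60-base probes, and sequences are shown for probes behind the strongest changes and for a pair that shows how probe choice matters. Positions are those of the files on oryCun2, and a span longer than the probe means that the probe joins separate stretches of the genome. The files do not say whether a probe lies in an exon or a UTR. The first CCL2 probe lies at chr19:23721871-23721930, the IL10 probe at chr16:65583372-65584326, the first TNFAIP6 probe at chr7:90363252-90367714 and the TREML1 probe at chr12:30905699-30905758, and these 4 are in lower case throughout. The first S100A9 probe lies at chr13:39032371-39033712 and the second at chr13:39032375-39033716. Capitals mark the 56 bases over which the second is the reverse complement of the first.
CCL2: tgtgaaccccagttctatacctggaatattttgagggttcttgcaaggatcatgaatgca
IL10: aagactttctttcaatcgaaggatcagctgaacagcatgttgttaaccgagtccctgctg
TNFAIP6: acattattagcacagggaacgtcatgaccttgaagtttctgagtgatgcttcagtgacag
TREML1: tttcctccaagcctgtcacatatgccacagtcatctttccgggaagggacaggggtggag
S100A9, first probe: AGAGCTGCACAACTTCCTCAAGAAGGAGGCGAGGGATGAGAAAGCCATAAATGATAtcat
S100A9, second probe: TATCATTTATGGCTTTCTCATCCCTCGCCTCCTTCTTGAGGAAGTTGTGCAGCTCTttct

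The raw median signal was 59 to 77 on the LPS T4 arrays and 72 to 99.5 on the LPS T24 arrays, and it was higher at T24 in all 4 rabbits. The mean rise was 0.36 on the log2 scale (SD 0.09, exact sign permutation p = 0.125, the smallest that 4 pairs allow). Rabbit 4 gave the dimmest LPS T4 array, with 51.4% of spots well above background against 55.8 to 59.8% on the other LPS T4 arrays. Levels are given below as the log2 median signal minus the median of the array, so they are relative to each array. The number of arrays limits the precision. Fewer cells of a type and less RNA per cell cannot be told apart in these bulk samples.

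From T4 to T24 after LPS, 12153 of 28766 genes were called differentially expressed (DE) at a limma adjusted p under 0.05 (42.2%), 5299 higher (18.4%) and 6854 lower (23.8%). The excess of falls was not stable, since without rabbit 2 the counts were 4363 higher and 3807 lower, without rabbit 4 4853 and 4129, without rabbit 5 4428 and 4273, and with the LPS arrays alone in the fit 5093 and 4889. The median log2 FC over all genes was -0.19. The 2 directions differed in detection, which is the scanner software's flag for a spot well above background, and a gene with several probes counted as detected on an array where at least 1 of them was. Among the genes called lower, 2521 (36.8%) were well above background on none of the 8 LPS arrays, and the 8570 genes of that kind had a median log2 FC of -0.28, while the 13615 genes well above background on all 8 arrays had one of 0.03. Their fall is a shift of signals near background relative to the array median, and the part of the higher raw median at T24 in it was not tested. When dim probes were left out before the fit, 5300 genes were called higher and 3408 lower. Genes are therefore named below only if all 4 arrays at the brighter time showed them well above background, with the exception of the core genes and of list markers that are given as near background or to account for a count. Of the genes called, 5250 rises and 3002 falls met that condition, and 5049 of these rises and 2650 of these falls went the same way in 4 of 4 rabbits. Of the 5250 and 3002, 2279 rises and 680 falls were larger than 1 on the log2 scale, and 457 rises and 96 falls were larger than 2.

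**Figure D1:**
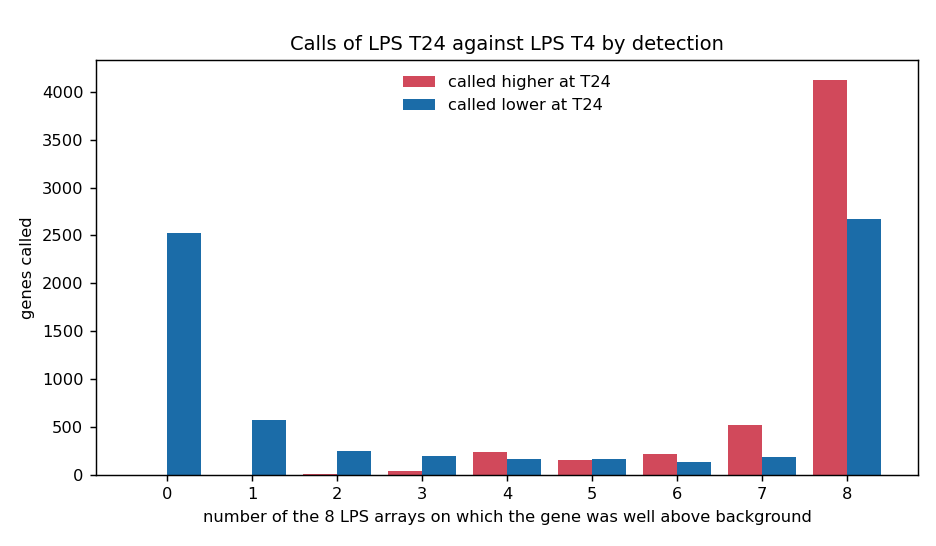
Number of genes called higher (red) and lower (blue) at T24 than at T4 after LPS (y axis), by the number of the 8 LPS arrays on which the gene was well above background (x axis). The 2521 falls at 0 arrays stand against 1 rise, while 4122 rises and 2676 falls lie at 8 arrays.

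The largest rise among named genes was that of CCL2, a chemokine that attracts monocytes. Its level was 0.56, 1.16, 1.61 and 3.25 in rabbits 1, 2, 4 and 5 at LPS T4, and 7.34, 8.94, 7.80 and 7.04 at LPS T24. Every T24 culture lay above every T4 culture, and the rabbit with the highest T4 level had the lowest T24 level. CCL2 rose 70.4-fold (log2 FC 6.14 ± 0.55, SE, adjusted p = 4.03e-08). Its 5 probes gave log2 FC between 6.06 and 6.24. ORM1, which codes for an acute phase glycoprotein, went from 0.32, 0.67, 1.12 and 1.95 to 6.28, 7.23, 7.34 and 7.61. It rose 68.6-fold (log2 FC 6.10 ± 0.32, adjusted p = 3.07e-11), again with no overlap between the times, a pattern that 33.1% of all genes showed in either direction.

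Genes of macrophage lysosomes and lipid handling made up the strongest group rise. Of 48 measured genes of the list, 40 were called higher and 2 lower, with a median log2 FC of 2.27, against 18.4% higher, 23.8% lower and -0.19 over all genes. The cysteine proteases CTSK and CTSB rose 45.3-fold and 32.6-fold. CTSK went from between 2.53 and 3.38 at T4 to between 7.66 and 9.20 at T24, and CTSB from between 1.52 and 4.26 to between 7.40 and 8.50. SPP1, which codes for osteopontin, rose 31.5-fold, and ATP6AP1, a subunit of the proton pump that acidifies lysosomes, rose 29.0-fold. LPL, the lipoprotein lipase, was well above background on 0 arrays at T4 and 4 at T24 and rose at least 12.6-fold (adjusted p = 4.06e-06). The bound sets the T24 mean against the T4 mean of, on each array, the higher of the lowest signal that counted as well above background and the signal of the gene itself, so it equals the fitted fold where the second was the higher on all 4 arrays, as for ACTA2 and TNFAIP8L3 below. Of other genes given with a fold, MMP12, CSF1R, CCR1, TBXAS1 and CD22 were well above background on 3 of 4 arrays at T4, LTF on 1 at T4, and CHAC1 on 2 at T24. The tartrate-resistant phosphatase ACP5 rose 3.28-fold and the aspartic protease CTSE 4.74-fold. The list was not uniform. MARCO, a scavenger receptor, fell 12.1-fold, and the scavenger receptor CD36 did not pass the test (log2 FC 0.76 ± 0.31, adjusted p = 0.0575), with its 3 probes between 0.12 and 1.17. The median of the list was 2.29, 2.25, 2.42 and 2.11 in rabbits 1, 2, 4 and 5.

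Monocyte markers moved with these genes. Of 16 measured markers, 11 (68.8%) were called higher, against 18.4% over all genes, and 0 lower, with a median log2 FC of 1.71. ITGAX, the integrin CD11c, rose 24.7-fold, CSF1R, the receptor for the macrophage growth factor CSF1, rose 20.8-fold, and CYBB, the membrane subunit of the phagocyte oxidase, rose 7.27-fold. On the log2 scale the summed marker signal lay between 7.84 and 9.10 at LPS T4 and between 10.8 and 11.9 at LPS T24. In mock-stimulated cells it lay between 8.99 and 9.51 at T4, and between 9.25 and 11.5 at T24. The sum weighs bright markers most, and S100A8 alone had a mean level of 10.97 at LPS T24. With each of the 16 markers counted equally, their mean level was 3.62 to 4.34 at LPS T24 and 3.44 to 4.44 at mock T24. At T4 it was 2.07 to 2.59 after LPS and 2.69 to 3.31 in mock. CD14, S100A8, S100A9, CCR2 and CYBB are among these markers and also belong to other lists described here. Whether the proportion of monocytes changed was not tested.

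Some secreted enzymes of the matrix list rose. MMP12, the macrophage elastase, rose 26.2-fold and MMP9, a gelatinase, 21.8-fold, and CHI3L1, a chitinase-like protein of macrophages, rose 12.1-fold. Over the whole matrix list 10 of 27 genes (37%) were called higher and 6 (22.2%) lower, against 18.4% and 23.8% over all genes. Of the falls 1, that of MMP13, was near background on all LPS arrays. The median of -0.06 took the other sign under 4 of 15 alternatives. Among the actins, ACTA2 was well above background on 0 arrays at T4 and 4 at T24 and rose at least 35.3-fold (adjusted p = 7.9e-13). ACTC1 rose 22.6-fold. TNFAIP8L3, a phosphoinositide transfer protein, rose at least 21.8-fold.

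Metabolic lists differed from each other. Of 17 genes of glycolysis and the adjoining pentose phosphate pathway, 12 (70.6%) were called higher and 1 (5.88%) lower. Over all genes the shares were 18.4% and 23.8%. The glycolysis list had a median log2 FC of 1.67. TKT, the transketolase, rose by 4.00 on the log2 scale. Of 16 iron and oxidative stress genes, 12 (75%) were called higher and 2 (12.5%) lower. LCN2, which binds bacterial siderophores and was well above background on 2 of 4 arrays at T4, rose 10.5-fold, and HAMP, the iron hormone hepcidin, fell 1.55-fold to a level that was well above background on 1 of 4 arrays. Of 33 genes of oxidative phosphorylation 14 (42.4%) were called higher and 2 (6.06%) lower. The complex I subunit NDUFA9 rose 3.68-fold, but the median of the list, 0.24, had the other sign under 1 alternative. FDFT1 and ACAT2 of sterol metabolism each rose 3.15-fold, in a list of 14 in which 3 were called higher (21.4%, against 18.4% over all genes) and 1 lower, with a median of 0.05 that changed sign under 1 alternative. Of 15 measured cytosolic ribosomal protein genes 0 were called higher and 8 (53.3%) lower. RPL35A fell 2.01-fold and RPLP1 1.87-fold.

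**Figure D2:**
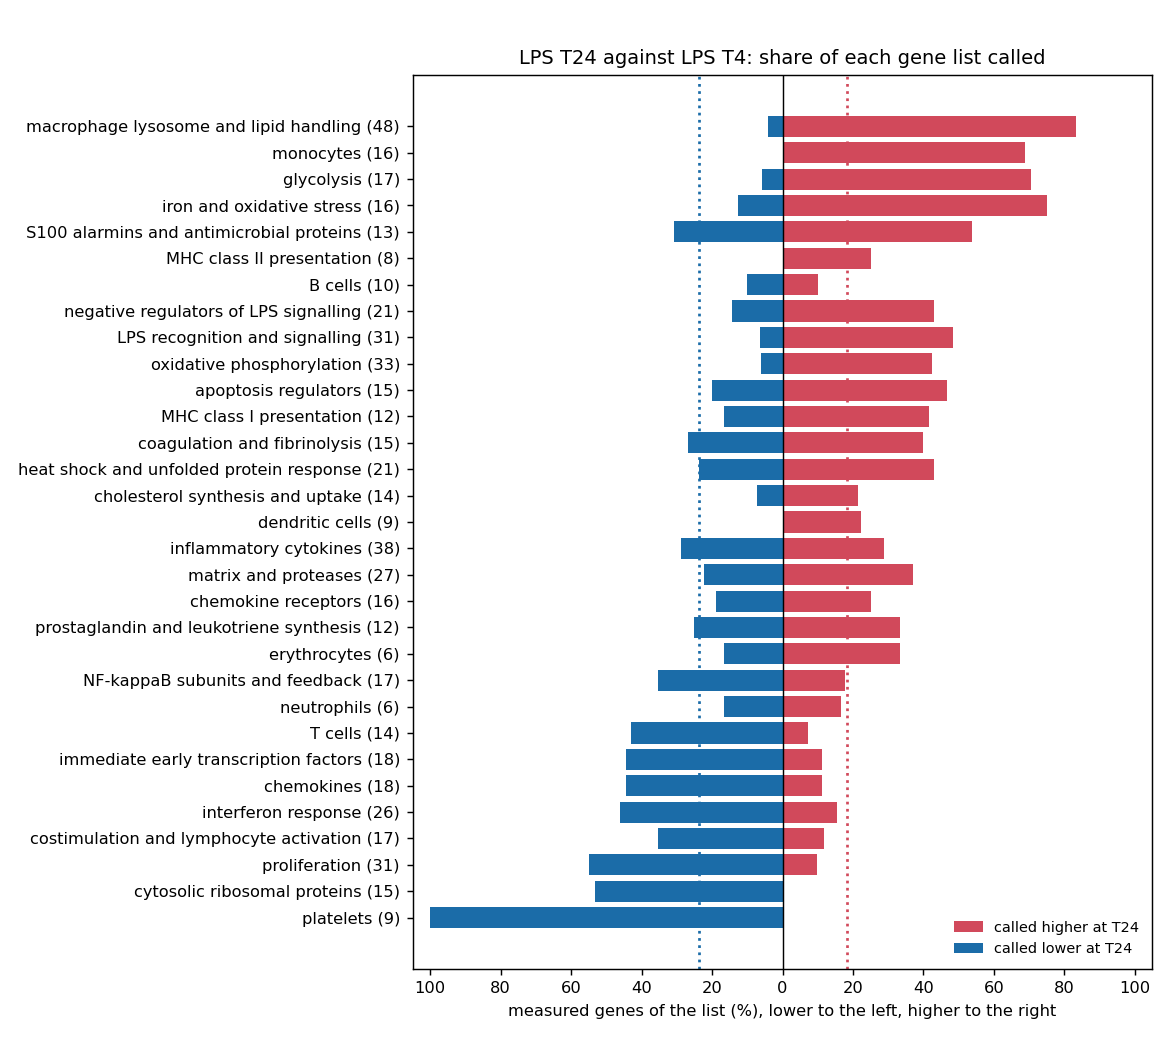
Share of the measured genes of each list (number in brackets) called higher (red, to the right) or lower (blue, to the left) at T24 than at T4 after LPS, in percent. Dotted lines mark the shares over all 28766 genes, 18.4% higher and 23.8% lower. Lysosomal, monocyte, glycolytic and iron and oxidative stress genes extend far to the right, and the 9 platelet markers all lie to the left.

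Among 31 measured receptors, adaptors and kinases of the LPS pathway 15 (48.4%) were called higher at T24, 2 (6.45%) lower and 14 neither. Over all genes 18.4% were called higher and 23.8% lower. The median log2 FC of the list was 0.35. CD14, the coreceptor that hands LPS to TLR4, had levels of 6.29, 5.22, 6.01 and 5.81 at LPS T4 and of 9.14, 8.57, 8.90 and 7.88 at LPS T24. Its lowest T24 level exceeded its highest T4 level, and it rose 6.92-fold (log2 FC 2.79 ± 0.26, adjusted p = 6e-08). The adaptor MYD88 rose 3.88-fold. TLR4 itself changed little, 1.55-fold (log2 FC 0.63 ± 0.20, adjusted p = 0.0189), and lost its call under 5 of 15 alternatives. TAB2, which links TRAF6 to the kinase TAK1, fell 1.29-fold (adjusted p = 0.0295).

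The inhibitors of the pathway split. Of 21 measured negative regulators 9 (42.9%) were called higher and 3 (14.3%) lower, against 18.4% and 23.8% over all genes. Their median log2 FC was 0.36. IL10, the main anti-inflammatory cytokine of monocytes, had levels of 2.13, 0.19, -0.22 and -0.22 at LPS T4 and of 5.39, 5.42, 4.43 and 2.74 at LPS T24. The highest T4 culture, that of rabbit 1, lay just below the lowest T24 culture, that of rabbit 5. IL10 rose 16.2-fold (log2 FC 4.02 ± 0.62, adjusted p = 3.43e-05) and was well above background on 3 of 4 arrays at T4. IL1RN, the IL1 receptor antagonist, rose 5.25-fold. IRAK3, a kinase-dead brake on MYD88 signalling, rose 1.47-fold, and its call was lost under 4 of 15 alternatives. NFKBIA, the inhibitor of NF-kappaB, fell 1.68-fold (adjusted p = 0.0299, lost under 6 of 15), and SOCS3, a feedback inhibitor of cytokine receptors, gave 0.29 ± 0.28 and did not pass the test.

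Inflammatory cytokines went in both directions. Of 38 measured genes 11 (28.9%) were called higher and 11 (28.9%) lower, against 18.4% and 23.8% over all genes. Of the genes called lower, 1 was well above background on none of the LPS arrays. TNF had levels of 10.61, 11.61, 10.43 and 9.32 at LPS T4 and of 8.46, 7.60, 7.31 and 7.22 at LPS T24. Every T24 level was below every T4 level, and TNF fell 7.17-fold (log2 FC -2.84 ± 0.41, adjusted p = 1.54e-05). IL12A, a subunit of the T helper 1 cytokine IL12, went from 2.15, 1.88, 2.94 and 2.08 to -0.45, -0.81, -0.77 and -0.33, and fell 7.23-fold (log2 FC -2.85 ± 0.25, adjusted p = 2.59e-08). IL1A fell 2.96-fold (adjusted p = 0.0476), a call lost under 9 of 15 alternatives.

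Other cytokine genes stayed high or rose. IL1B had levels of 9.63, 8.82, 8.15 and 8.54 at LPS T4 and of 10.18, 9.41, 9.33 and 9.51 at LPS T24. It was higher at T24 in 4 of 4 rabbits, but the ranges overlapped and it did not pass the test (log2 FC 0.82 ± 0.74, adjusted p = 0.354). IL6 gave -0.79 ± 0.53 (adjusted p = 0.22), lower in 4 of 4 rabbits, and IL23A 0.62 ± 0.46. IL36G, an epithelial and myeloid relative of IL1, rose 2.44-fold (adjusted p = 0.0397), a call lost under 9 of 15 alternatives, and IL37, an inhibitory relative, rose 1.92-fold (adjusted p = 0.00832). TNFSF13, the B cell factor APRIL, rose 25.0-fold, and HBEGF, a growth factor shed from the surface of macrophages, rose 3.93-fold.

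**Figure D3:**
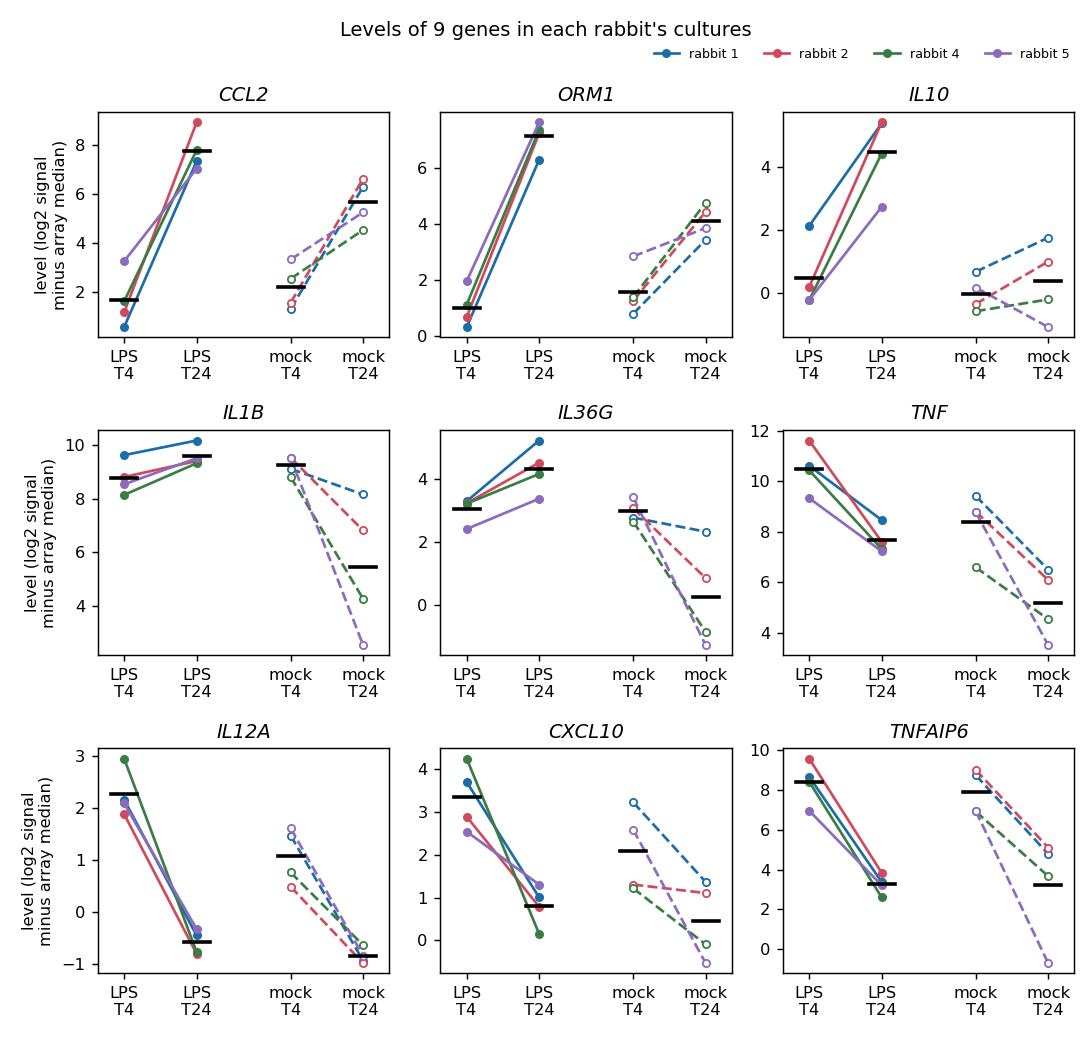
Level of 9 genes (y axis, log2 signal minus the array median) in each rabbit's cultures at LPS T4 and T24 (filled points, solid lines) and at mock T4 and T24 (open points, dashed lines), with black bars at group means of 4 rabbits. After LPS, CCL2, ORM1 and IL10 rose and TNF, IL12A, CXCL10 and TNFAIP6 fell in all 4 rabbits, while IL1B and IL36G fell in all 4 mock-stimulated pairs and were higher at T24 in all 4 LPS pairs.

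Of 18 measured chemokines 2 (11.1%) were called higher and 8 (44.4%) lower, against 18.4% and 23.8% over all genes. Of the falls 1, that of CCL20, was near background on all LPS arrays. CXCL10 and CXCL11, which attract T cells and are induced by interferon, fell 5.76-fold and 6.42-fold, CXCL11 to a level that was well above background on 2 of 4 arrays. The CXCL10 levels were 3.69, 2.89, 4.24 and 2.54 at LPS T4 and 1.01, 0.79, 0.15 and 1.30 at LPS T24, with no overlap. CCL5, another T cell attractant, fell 6.53-fold. CCL17 was the other chemokine that rose, 13.8-fold (adjusted p = 0.000476). CXCL8 gave -0.52 ± 0.61 (adjusted p = 0.476) and CCL4 -1.24 ± 0.73 (adjusted p = 0.164), and neither passed the test. Among 16 chemokine receptors 4 (25.0%) were called higher, including CCR1 (5.98-fold), CCRL2 (2.44-fold) and CCR7 (2.01-fold), and 3 (18.8%) lower, of which 2 were near background on all LPS arrays, and both shares were near those over all genes (18.4% and 23.8%).

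TNFAIP6, which codes for the hyaluronan-binding protein TSG6, showed the largest fall of all named genes, and it fell in mock-stimulated cells too (log2 FC -4.69). Its levels were 8.66, 9.58, 8.41 and 6.96 at LPS T4 and 3.38, 3.85, 2.61 and 3.21 at LPS T24, and all 7 probes gave log2 FC between -5.25 and -5.02. It fell 35.3-fold (log2 FC -5.14 ± 0.58, adjusted p = 9.16e-07). PTGS2, the inducible cyclooxygenase, fell 6.65-fold, INHBA, the activin A subunit, 18.1-fold, G0S2, an inhibitor of lipolysis, 7.32-fold, and ARG1, arginase 1, 12.2-fold. The ARG1 difference was -0.77 in the weakest rabbit and -5.41 in the strongest. PSAT1, an enzyme of serine synthesis, fell 10.9-fold, and SERPINB10, a serpin, 8.71-fold.

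Of 17 NF-kappaB subunits and feedback genes 3 (17.6%) were called higher, near the 18.4% over all genes, and 6 (35.3%) lower, against 23.8%. BCL2A1, a survival gene, rose 4.92-fold and TNIP2 2.18-fold, while BIRC3 fell 2.58-fold. Of 18 immediate early transcription factors 2 (11.1%) were called higher and 8 (44.4%) lower. JUN rose 4.04-fold and KLF6 2.16-fold, and the nuclear receptors NR4A3 and NR4A2 fell 3.95-fold and 2.28-fold. Of 26 interferon response genes 4 (15.4%) were called higher and 12 (46.2%) lower, with a median of -0.43. RIGI, an RNA sensor, fell 3.18-fold, and IFIT2, which was well above background on 1 of 4 arrays at T24, 3.08-fold, whereas SAMHD1, which degrades nucleotides, rose 3.37-fold and the transcription factor IRF8 1.81-fold. Among 12 genes of MHC class I presentation 5 (41.7%) were called higher and 2 (16.7%) lower. CANX rose 2.86-fold and PSMB10 2.29-fold, while PSMB9 fell 3.15-fold. Of 8 class II genes 2 (25.0%) were called higher, near the 18.4% over all genes, and 0 lower. The rises were those of CTSS (2.61-fold) and RLA-DR-ALPHA (2.15-fold, adjusted p = 0.0251). Of 17 costimulatory genes 2 (11.8%) were called higher, IL2RG (5.46-fold) and SLAMF1 (2.54-fold), and 6 (35.3%) lower.

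Among S100 and antimicrobial genes 7 of 13 (53.8%) were called higher and 4 (30.8%) lower, against 18.4% and 23.8% over all genes. The alarmin subunit S100A8 is measured under that symbol and under its older name MRP-8. MRP-8 had levels of 6.98, 4.66, 5.19 and 5.93 at LPS T4 and of 10.50, 9.91, 10.50 and 8.98 at LPS T24, with no overlap. It rose 19.4-fold, and S100A8 16.5-fold (adjusted p = 4.84e-06 and 1.01e-05). For its partner S100A9, the first probe shown above gave a log2 FC of 4.36 (adjusted p = 7.5e-05, single-probe fit) and the second, which reads the opposite strand over 56 bases, 0.77 (adjusted p = 0.0759). The mean of both, 2.56 ± 0.51, therefore understates what the first probe measured. LTF, lactoferrin, rose 1.93-fold. DEFB1, a beta-defensin, fell 3.16-fold and SAA3, a serum amyloid A, 2.60-fold. BPI, which binds LPS and kills Gram-negative bacteria, gave -0.53 ± 0.27 and did not pass the test.

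Of 15 coagulation genes 6 (40.0%) were called higher and 4 (26.7%) lower, against 18.4% and 23.8% over all genes, and 1 of the falls was near background on all LPS arrays. The protease inhibitor SERPINB1 rose 10.4-fold and ANXA2, a plasminogen receptor, 3.27-fold. F3, tissue factor, the starter of coagulation, gave 1.49 ± 0.60 and just missed the threshold (adjusted p = 0.0514). PLAU, urokinase, rose 2.14-fold (adjusted p = 0.0325), a call lost under 7 of 15 alternatives. F5 fell 2.01-fold and THBS1, thrombospondin, 2.35-fold. Of 12 prostaglandin and leukotriene genes 4 (33.3%) were called higher and 3 (25%) lower, the latter near the 23.8% over all genes. Of these falls 1 was near background on all LPS arrays. TBXAS1, thromboxane synthase, rose 3.15-fold and ALOX5, which was well above background only at T24, at least 1.51-fold.

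All 9 measured platelet markers were called lower, with a median log2 FC of -1.55, and 1 of them was near background on all LPS arrays. TREML1, a receptor of platelet granules, had levels of 3.37, 3.39, 2.31 and 3.86 at LPS T4 and of -0.82, -1.09, -0.85 and -0.40 at LPS T24. The 2 groups were far apart, the T24 level was well above background on 1 of 4 arrays, and it fell 16.2-fold (log2 FC -4.02 ± 0.32, adjusted p = 7.33e-09). CLEC1B, the podoplanin receptor, was well above background on 4 arrays at T4 and 1 at T24 and fell 13.2-fold. TUBB1, a tubulin of platelets, fell 10.5-fold and ITGB3, an integrin subunit, 9.94-fold, its 5 probes lying between -4.44 and -0.77. The summed platelet signal lay between 5.09 and 6.65 at LPS T4 and between 2.90 and 3.20 at LPS T24, and in mock-stimulated cells from 5.97 to 7.23 and from 2.97 to 3.50. Of 31 proliferation genes 3 (9.68%) were called higher and 17 (54.8%) lower, against 18.4% and 23.8% over all genes. Their median log2 FC was -0.54. CDK1, the mitotic kinase, fell 4.43-fold and NCAPG, a condensin subunit, 5.10-fold, while CCND3 rose 2.11-fold and MCM4 1.75-fold. The median of the list was -0.88, -0.63 and -0.56 in rabbits 1, 2 and 4, and 0.00 in rabbit 5.

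Lymphocyte markers moved less. Of 14 T cell markers 1 (7.14%) was called higher and 6 (42.9%) lower, against 18.4% and 23.8% over all genes, with a median of -0.34. Their summed signal was 4.63 to 5.35 at LPS T4 and 4.77 to 5.29 at LPS T24. That sum includes LAT, whose mean level went from 1.12 to 3.61, so it does not show the falls of other markers. CD4 was well above background on 2 arrays at T4 and 1 at T24. LAT, an adaptor of the T cell receptor, rose 5.62-fold against the direction of the other T cell markers called, such as CD6 (1.54-fold lower) and CD8B (1.31-fold lower). Of 10 B cell markers 1 was called higher and 1 lower (10% each, below the shares over all genes). CD22 rose 1.45-fold and POU2AF1 fell 1.83-fold. Of 3 NK cell markers 1 (33.3%) was called lower, and KLRK1 was not well above background. Among 6 neutrophil markers 1 (16.7%) was called higher and 1 (16.7%) lower, near or below the shares over all genes. Their summed signals were 2.93 to 3.41 at LPS T4 and 2.86 to 3.24 at LPS T24. S100P was not above background at either time. Of 6 erythrocyte markers 2 (33.3%) were called higher and 1 (16.7%) lower. Of 9 dendritic cell markers 2 were called higher (22.2%, near the 18.4% over all genes) and 0 lower. Of 15 apoptosis regulators 7 (46.7%) were called higher, led by BAX (5.95-fold), and 3 (20%) lower, among them FAS (1.80-fold) and FASLG (1.77-fold). Of 21 heat shock and unfolded protein response genes 9 (42.9%) were called higher and 5 (23.8%) lower, the latter the same share as over all genes. BAG3 rose 3.35-fold and HSPA8 2.73-fold, while CHAC1 fell 2.71-fold and XBP1 2.24-fold.

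**Figure D4:**
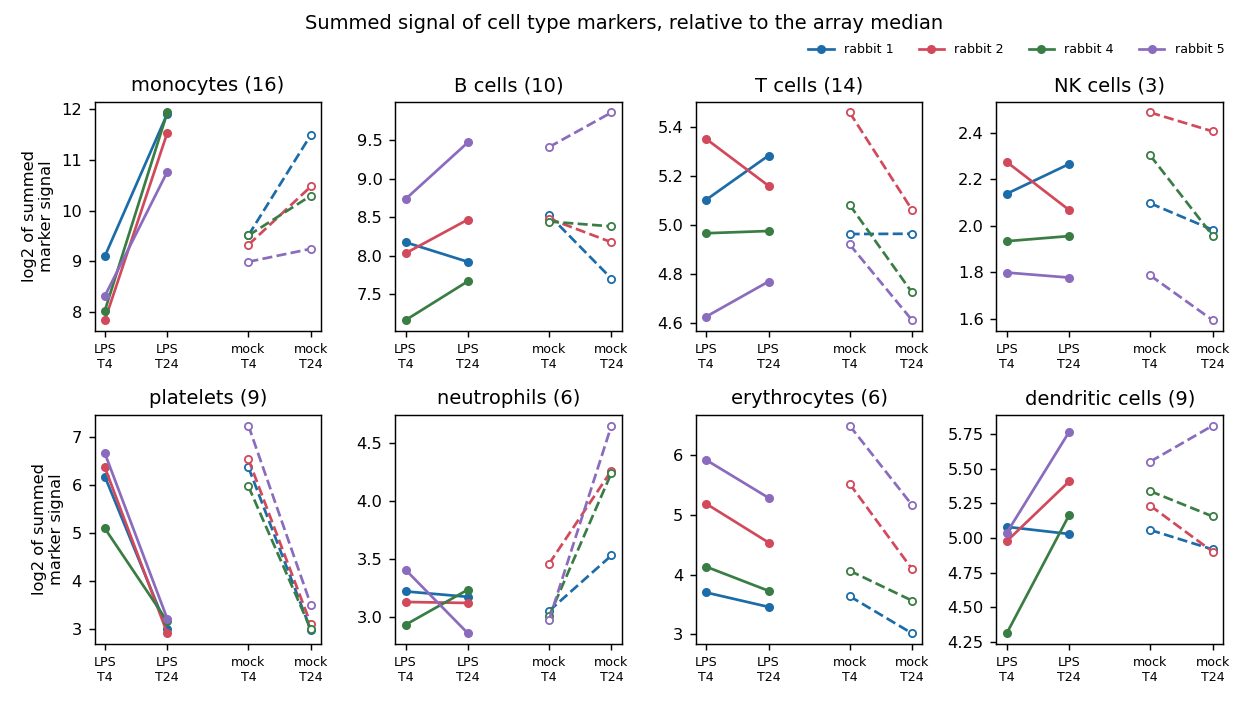
Log2 of the summed signal of the measured markers of 8 cell types (number in brackets), relative to the array median, in each rabbit's cultures at LPS T4 and T24 (filled, solid) and mock T4 and T24 (open, dashed). Platelet signals fell to between 2.90 and 3.20 at LPS T24, monocyte signals rose to between 10.8 and 11.9, and the y axes differ between panels. The sums weigh bright markers most.

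Much of this movement also took place without LPS. In mock-stimulated cells 2591 genes were called higher (9.01%) and 1885 lower (6.55%) at T24 than at T4, from arrays not used in the LPS comparison but from the same 4 rabbits. Of the genes called higher after LPS 37.5% were also called higher in mock, and 76.8% of the mock rises were also called after LPS. For genes called lower the shares were 19.3% and 70.3%. Opposite calls were rare, with 35 genes higher after LPS and lower in mock, and 8 the other way. Among the 8252 genes called after LPS and bright enough to be named, the LPS and mock changes had a Pearson correlation of 0.78 across genes, given as a description since genes are not independent and the rabbits are shared. Platelet and proliferation genes fell in mock too, with 7 of 9 and 23 of 31 called lower, and 34 of 48 lysosomal genes rose. TNFAIP6 gave -5.14 after LPS and -4.69 in mock, TNF -2.84 and -3.24, and CTSB 5.03 and 4.22.

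The difference between the 2 time changes was tested directly. It was called for 1660 genes (5.77%), 1470 more positive after LPS (5.11%) and 190 more negative (0.661%), and 5708 had an unadjusted p under 0.05. Of the 1470, 1315 had also been called higher after LPS. These counts depended on single rabbits. Without rabbit 2 they fell to 39 and 17, without rabbit 5 to 228 and 85, and without rabbit 4 to 682 and 60. ORM1, HBEGF, IL37 and MLANA were the named genes whose difference was called under all 15 alternatives.

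**Figure D5:**
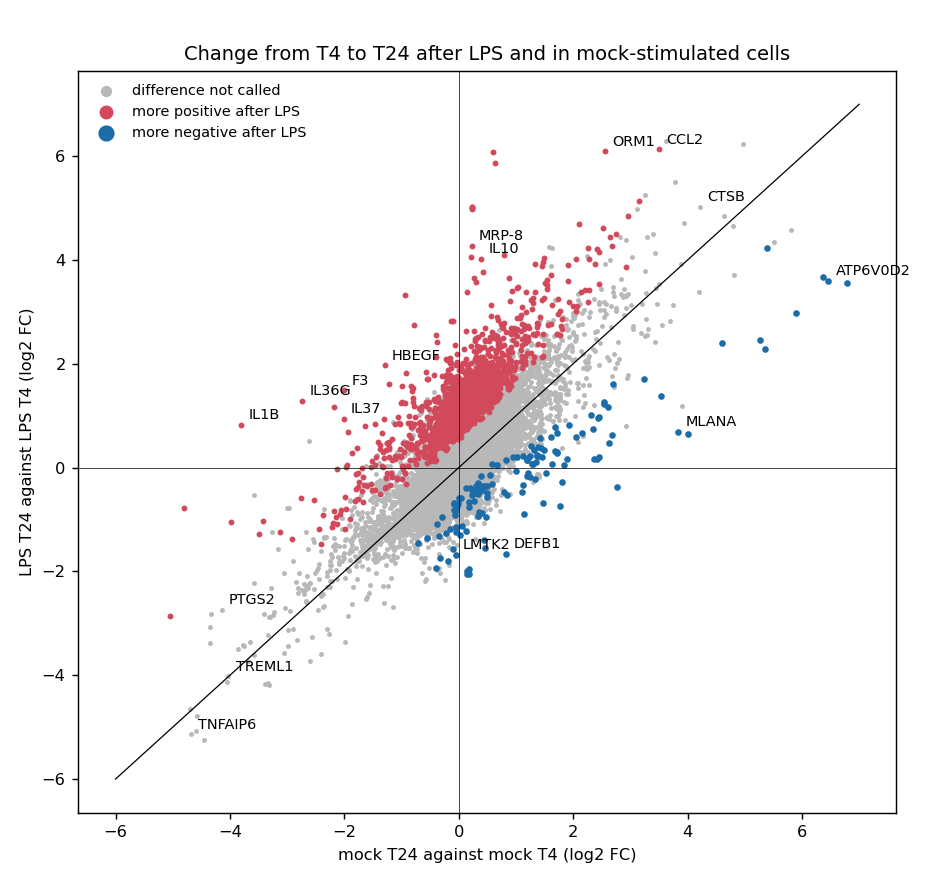
Change from T4 to T24 after LPS (y axis, log2 FC) against the change in mock-stimulated cells (x axis, log2 FC) for genes well above background on all 4 LPS arrays of the brighter time, with the line of equal change. Red points had a called difference more positive after LPS and blue points one more negative. IL1B, IL36G, F3, IL37 and HBEGF lie at upper left, where the mock change is negative, and MLANA and ATP6V0D2 at right, below the line.

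IL1B had the largest difference of all named genes with probes averaged. In mock-stimulated cells its level fell from 9.12, 9.54, 8.81 and 9.52 at T4 to 8.16, 6.82, 4.26 and 2.54 at T24, a fall of 0.96 in rabbit 1 and of 6.98 in rabbit 5. After LPS the change was between 0.54 and 1.18 in all 4 rabbits, and the difference was 4.63 ± 1.04 (adjusted p = 0.0155). IL36G gave 1.29 after LPS and -2.73 in mock (difference 4.02 ± 0.69, adjusted p = 0.00344), and HBEGF 1.97 and -1.29 (3.27 ± 0.49, adjusted p = 0.00171). F3, IL37, TLR4 and IRAK3 likewise were higher at T24 after LPS in 4 of 4 rabbits and lower in mock. For IL6 the changes were -0.79 and -2.96, but the difference did not pass the test (adjusted p = 0.0942). TNF, CCL5 and PTGS2 fell under both conditions, and their differences did not pass either.

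Some genes rose after LPS and did not pass the test in mock. IL10 (difference 3.63 ± 0.88, adjusted p = 0.0205), MRP-8 (4.05 ± 0.79, adjusted p = 0.0073), the formyl peptide receptor FPR1 (3.54), the metalloreductase STEAP1 (3.40), LCN2 (3.24) and S100A9 (2.96) belong here. The S100A9 value is the mean of the probes shown above, of which the first gave 5.19 (adjusted p = 0.00687, single-probe fit) and the second 0.73 (adjusted p = 0.428). The mock change of MRP-8 had opposite signs among rabbits, from -1.96 to 2.36. ORM1 rose in both, by 6.10 after LPS and 2.55 in mock (difference 3.55 ± 0.45, adjusted p = 0.000421). The CCL2 difference of 2.63 ± 0.77 was just past the threshold (adjusted p = 0.0487) and kept its call under 2 of 15 alternatives. By list, against 5.11% more positive and 0.661% more negative over all genes, the difference was more positive after LPS for 6 of 16 monocyte markers, 5 of 13 S100 and antimicrobial genes, 5 of 15 coagulation genes, 5 of 17 glycolysis genes and 10 of 48 lysosomal genes. It was more positive for 10 of 31 proliferation genes too, of which 17 were called lower after LPS and 23 in mock. It was more negative for 2 lysosomal genes, for 2 S100 and antimicrobial genes and for 2 of 6 neutrophil markers.

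The opposite sign, a change more negative after LPS than in mock, was called for 190 genes. Of these, 27 had been called higher after LPS and 88 lower. MLANA, a melanosomal protein, had levels of 0.53, 0.30, 0.07 and 0.46 at LPS T4 and of 1.32, 1.40, 0.91 and 0.50 at LPS T24, while in mock it reached 3.01, 3.93, 4.85 and 4.50. The mock T24 levels all exceeded the LPS T24 levels, and the difference was -3.14 ± 0.38 (adjusted p = 0.000286). ATP6V0D2, a proton pump subunit of osteoclasts and macrophages, rose 12.1-fold after LPS and 88.2-fold in mock, from T4 levels that were well above background on 2 of 4 arrays in each (difference -2.86 ± 0.46, adjusted p = 0.00299). The ubiquitin ligase RNF128, the adhesion molecule ALCAM, the lysosomal GUSB and the sugar enzyme GALM rose under both conditions, with differences between -1.60 and -1.48, and at LPS T4 RNF128 was well above background on 1 array and GALM on 0. DEFB1 fell by 1.66 after LPS and gave 0.83 in mock (difference -2.49 ± 0.56, adjusted p = 0.0157), and LMTK2, a kinase, fell by 1.68 and gave -0.06 (-1.62, adjusted p = 0.00733).

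No rabbit had its LPS T4 and LPS T24 arrays on the same slide, but each of the 3 slides held arrays of both times, from different rabbits. Within all 3 slides, 93.0% of the 5250 rises and 95.6% of the 3002 falls kept their sign. These genes were called from the same arrays, so this agreement was partly fixed by the calling and is no test of the slide. The median change of lysosomal genes was 2.54, 2.59 and 2.10 on slides 1, 2 and 3, and that of platelet markers -1.63, -1.06 and -1.91. TLR4 was an exception, at 0.51, -0.03 and 1.30. With the slide as a further block, 5525 genes were called higher and 10167 lower.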

How the data were processed

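Transcript levels were measured on one-colour Agilent arrays (Cy3) in 24 PBMC samples, 6 groups of 4 rabbits. The authors deposited spot intensity values from Agilent Feature Extraction 10.7.3.1, with positions on oryCun2, and a table of log2 median signals centred per array, used here only as an alternative. The exact centre used in that table is not stated, and its columns did not have a median of 0.

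From the intensity values, log2 median signals of non-control spots without outlier marks were centred on the array median, and probes of a gene were averaged. Of 42089 probes, 20292 had a gene symbol and 20884 only an identifier, and some symbols came from the study's list of immune genes. In all, 28766 genes were tested and 115 with a missing value were not. limma 3.58.1 in R 4.3.3 was fitted to all 24 arrays with 6 group means and the rabbit as a block, and Benjamini-Hochberg adjusted p under 0.05 was called. The methods' model had no rabbit term. The rabbit number in the sample titles names the animal, and deviations from the group means correlated between LPS T4 and LPS T24 with a median of 0.27 within rabbits (4 pairs, 0.19 to 0.35) and -0.10 between rabbits (12 pairs). Deviations cancel within each group, so the negative value between rabbits largely follows from the positive one and is not separate evidence. The fit was tested on simulated data.

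The comparison, gene lists and core genes were chosen with earlier results of these data known. Genes named are the 12 largest rises and falls, the 8 largest differences from mock in each direction, the 2 largest rises and falls of each list, all called, with a symbol, the same direction in 4 of 4 rabbits and well above background on each of the 4 arrays at the brighter time, and a set of core genes with or without a call. Core genes CCL3, TNFAIP3, TNIP3, PLAUR, SAA1, S100A12, LYZ and HMOX1 were not analysed here. A few further genes were named to describe list counts, after their values were seen. PMA and ionomycin arrays entered the fit only. Some genes that this rule selects are not reported here.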

Additional observations from a re-analysis of the deposited data

Results flagged for a closer look

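In 17 of 280 groups of 4 cultures examined over the named genes, 1 culture lay far from the other 3. The value given is its gap to the nearest culture as a share of the range of the group, and chance gives about 1 in 20 groups a gap past the critical value of Dixon's test. At LPS T4, the sample of rabbit 1 stood apart for CYBB (0.904) and CDK1 (0.845). At LPS T4, the sample of rabbit 2 stood apart for CD22 (0.837). At LPS T4, the sample of rabbit 4 stood apart for MYD88 (0.859), SAA3 (0.905), LAT (0.861) and CD8B (0.876). At LPS T4, the sample of rabbit 5 stood apart for IL36G (0.911), GALM (0.889), CCL4 (0.876), TLR4 (0.865), LPL (0.883) and NR4A2 (0.877). At LPS T24, the sample of rabbit 1 stood apart for IRAK3 (0.98). At LPS T24, the sample of rabbit 2 stood apart for MARCO (0.889) and ACP5 (0.838). At LPS T24, the sample of rabbit 5 stood apart for CSF1R (0.838).

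For 43 of 137 named genes the change from T4 to T24 differed between LPS and mock cultures in the limma test of the difference. Over all genes this difference was called for 1660 of 28766 (5.77%). Some named genes were chosen because their difference was called and among the largest. The count of 43 was therefore partly fixed by that choice and is no test of the named genes as a set. Values are log2 changes after LPS minus log2 changes in mock. The difference was positive for CCL2 (2.633), ORM1 (3.551), ACTA2 (1.996), ATP6AP1 (1.896), ITGAX (2.101), TNFAIP8L3 (1.796), MRP-8 (4.053), IL36G (4.019), S100A8 (3.827), IL10 (3.635), FPR1 (3.535) and STEAP1 (3.399). It was also positive for HBEGF (3.266), IL1B (4.626), IL37 (2.954), CD14 (1.425), TLR4 (1.501), IRAK3 (1.146), F3 (3.491), S100A9 (2.962), CHI3L1 (1.698), MYD88 (1.265), BCL2A1 (1.745) and SAMHD1 (1.76). Further positive differences were those of CANX (1.033), LCN2 (3.244), SERPINB1 (2.039), ANXA2 (2.249), THBS1 (1.883), MCM4 (1.079), BAX (1.663), NDUFA9 (1.734), BAG3 (1.625), IL2RG (2.167) and LAT (1.71). The difference was negative for MLANA (-3.14), ATP6V0D2 (-2.861), DEFB1 (-2.486), LMTK2 (-1.623), ALCAM (-1.599), RNF128 (-1.521), GALM (-1.48) and GUSB (-1.476). Of the 43, 4 kept their call under all 15 alternatives.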

How the results depend on the processing

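After LPS, 5299 genes were called higher and 6854 lower, and no named gene reversed its direction under any alternative, in the LPS change or in its difference from mock. Of 128 named genes called after LPS, 102 kept the call under all 15 alternatives. The call was lost under at least 1 for 26, and not all of these are marked above. Between 75.6% and 99.8% of the 5250 bright rises and between 62.2% and 99.5% of the 3002 bright falls kept their call. Single probes gave 8466 higher after LPS, 4219 higher in mock, and 2367 more positive and 297 more negative differences. A fold change of at least 2 left 2280 higher and 725 lower after LPS, 832 and 692 in mock, and 103 more negative differences. Without dim probes 3408 were lower (5300 higher), with array weights 11170 (6029 higher), and 3002 when only genes bright on all 4 arrays at the brighter time were counted, or 2844 when a share of the probes above 0.5 had to be bright, both chosen after seeing the data. The processed signal gave 4437 higher and 8870 lower, so 33.3% of calls were higher against 43.6%, 60.9% without dim probes, 35.2% with the slide block and 35.1% with array weights. Quantile normalization moved the median of all genes from -0.19 to -0.03. For the difference, the processed signal gave 444 more positive, array weights 3350 more positive and 2319 more negative, and the more negative calls numbered 593 with quantile normalization, 555 with normexp and 363 with the slide block. Causes were not tested.

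Without the replicate block, 4799 genes were called higher and 6022 lower after LPS, and the differences numbered 490 more positive and 69 more negative against 1470 and 190 with it. Leaving out each rabbit in turn gave 4363 to 4853 higher and 3807 to 4867 lower genes after LPS, 1194 to 1704 lower in mock, and 39 to 1210 more positive and 17 to 189 more negative differences, lowest without rabbit 2. Medians of the cytokine, chemokine receptor, cholesterol, coagulation, matrix, oxidative phosphorylation, unfolded protein, NK cell, erythrocyte and dendritic cell lists changed sign under at least 1 alternative. Signals near background limit the falls of dim genes.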
